A study of Mus musculus with 21 samples.

Results

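The Hox genes encode transcription factors with a shared DNA-binding homeodomain and lie in 4 clusters in the mouse genome. All table entries whose symbol was Hox followed by the cluster letter a to d and a number were taken, without use of their values. This gave 39 genes of the 42760 entries in each of the tables for lung and E18.5 brain and of the 40770 entries in the table for the linc-Brn1b strain, and each of the 39 was listed exactly once in each table. RNA-Seq had been carried out on 21 libraries in 10 groups. Lung at E14.5 came from the Fendrr strain (linc-Foxf1a in the labels) and brain at E18.5 from the Peril strain (linc-Sox2 in the labels). Telencephalon at E13.5 and at E15.5 and brain at P7, which the labels call whole brain, came from the linc-Brn1b strain. Each tissue and age had a wild-type (+/+) and a homozygous knockout (-/-) group of 2 libraries, except the E15.5 knockout group with 3. In every knockout the lincRNA gene, or most of it, had been replaced by a lacZ cassette in the germline, on a mixed 129S6SvEv and C57BL/6 background, so all cells of the animal carried the deletion.

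Expression was deposited as FPKM, fragments scaled by transcript length and by the number of mapped fragments, as the authors' value for each group, with no value per library. Neither sequencing depth nor the variation from animal to animal is thus known, no test over samples was run, the authors' own test columns were not used, and each level below is 1 value without replicates. Differences are given as log2(FPKM + 1) of knockout minus wild type, a scale that understates the change of low genes. As a description of size, a gene was called different when the mean of both groups was at least 1 FPKM and the difference at least 0.5, and the share of all table entries called by the same rule is printed as the background.

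Within a cluster, Hox genes are numbered by paralog group from 1 at the 3′ end of the cluster to 13 at the 5′ end. During development they are switched on in that order along the body axis, so that low-numbered genes reach furthest towards the head and high-numbered genes are restricted towards the tail. In the nervous system they are known for expression in the hindbrain and spinal cord and for their absence from the forebrain and midbrain. In the lung, which buds from the foregut, genes of the HoxA and HoxB clusters are known to be active in the mesenchyme, and Hoxa5 is required for normal development of the airways.

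On mm9, HoxA had 11 genes on chromosome 6 between 52105366 and 52210874, HoxB 10 on chromosome 11 between 96055630 and 96229570, HoxC 9 on chromosome 15 between 102751534 and 102867274, and HoxD 9 on chromosome 2 between 74506367 and 74603200. The highest Hox level in lung, in wild-type P7 brain and in the E18.5 brain libraries labelled knockout belonged to a gene of paralog group 5, whose members are Hoxa5 (ENSMUSG00000038253.6), Hoxb5 (ENSMUSG00000038700.3) and Hoxc5 (ENSMUSG00000022485.2). The coding sequence of the homeodomain of Hoxa5 is shown because this was the most abundant Hox gene, and the genes of the group were compared because their similarity bears on how reads can be assigned. On mm9 the 180 bases of Hoxa5 lie in a coding exon at chr6:52152631-52152810 on the minus strand. Capitals mark the 18 bases that encode the conserved motif of the recognition helix, the part of the homeodomain that contacts DNA.
Hoxa5: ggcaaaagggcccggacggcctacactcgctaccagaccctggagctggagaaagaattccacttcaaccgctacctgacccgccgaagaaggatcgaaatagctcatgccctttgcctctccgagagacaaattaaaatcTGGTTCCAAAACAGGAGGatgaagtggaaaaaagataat
At 56 of the 180 positions the 3 genes were not all identical. The homeoboxes of Hoxa5 and Hoxb5 shared 151 of 180 bases and encoded 60 identical residues of 60, while Hoxa5 and Hoxc5 shared 138 bases and 54 residues and Hoxb5 and Hoxc5 shared 135 bases and 54 residues. The longest run of identical bases in their whole coding sequences was 26 for Hoxa5 and Hoxb5 and 17 for either of them with Hoxc5. Over all 741 pairs of the 39 genes, the longest run was 52 bases, between Hoxa6 and Hoxb4. In addition, 18 of the 39 genes shared a merged locus entry with another Hox gene in the lung and E18.5 brain tables and 16 in the linc-Brn1b table. The 6 genes up to Hoxa6 in HoxA and the 6 from Hoxb2 to Hoxb7 each formed 1 such locus in the lung table, so reads in overlapping transcripts of neighbours may have been assigned to either.

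Before the levels are compared, several groups require a remark on their labels. The lincRNA entry over Fendrr was at 38.4 FPKM in wild-type lung and at 0.045 in knockout, and linc-Brn1b was between 0.799 and 2.50 FPKM in its wild-type groups and listed at 0 in each knockout. The entry overlapping Peril stood at 0.0109 FPKM in wild type but at 4.65 in the group labelled knockout, against the label. This entry reaches beyond the deleted stretch and has 1 value for its whole length, so it does not measure the deleted part alone. Which value of the Peril strain belongs to wild type was inferred from the column order found in the linc-Brn1b strain. That order could not be checked in the Peril strain itself, and every direction and ratio given for it rests on this assignment. Both groups of this strain are therefore named by their labels only. Y-linked transcripts (Ddx3y, Eif2s3y, Uty, Kdm5d) were near 0 in 1 genotype and above 2 FPKM in the other in all 5 comparisons, so sex cannot be told apart from genotype.

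The P7 knockout group went against its label of whole brain. Of 8 cerebellar markers, 8 were lower in knockout than in wild type, and their summed level was 44.2 FPKM against 99.4. Pcp2, a marker of Purkinje cells, was at 14.7 FPKM in wild type and 1.48 in knockout, Gabra6, a receptor subunit of cerebellar granule cells, at 0.519 and 0.0324, and Atoh1, which specifies granule cell precursors, at 0.507 and 0.0148. Of 10 brainstem markers, 9 were lower, with a summed level of 9.87 FPKM against 18.55. Slc6a5, the glycine transporter of hindbrain and spinal neurons, was at 3.93 FPKM in wild type and 0.323 in knockout. The 4 markers of serotonin neurons ranged from Slc6a4 at 4.90 and 3.04 FPKM to Fev at 0.239 and 0.0653 FPKM. The 8 telencephalic markers summed to 171 FPKM in wild type and 184 in knockout, and 6 of the 8 were higher in knockout. The P7 comparison therefore set a wild-type group with cerebellar and brainstem markers against a knockout group in which most of them were low. Each P7 group is 1 pooled value, so it was not visible whether both knockout libraries shared this. In these whole-tissue samples, fewer cells of a type and less RNA per cell cannot be told apart.

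To describe the Hox code of the lung, the level of each gene in wild-type E14.5 lung was examined first. In this tissue 14 of the 39 genes reached 1 FPKM, 35.9% of the Hox genes beside 32.7% of all entries of the table, and all 14 were members of HoxA or HoxB. HoxB contributed 53.6% of the summed Hox level of 167 FPKM and HoxA 45.1%, against 0.864% for HoxC and 0.437% for HoxD. The labelled tissue carried its markers, with Sftpc, the surfactant protein of the distal epithelium, at 819 FPKM, and the mesenchymal regulators Tcf21 and Tbx4 at 83.7 and 63.7 FPKM.

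Within HoxA, the levels in wild-type lung had a single high point along the cluster. Hoxa2 was at 9.61 FPKM, Hoxa3 at 8.71 and Hoxa4 at 8.55. Hoxa5 stood at 40.9 FPKM, the highest Hox level in the tissue, with 2043 entries of the table above it. Hoxa6 followed at 4.70 and Hoxa7 at 1.65 FPKM. The 7 genes of groups 1 to 7 were thus all at 1 FPKM or more, and the 4 genes from Hoxa9 on were near 0. Across the 11 genes, the level had a Spearman correlation of -0.70 with the paralog number, a description over genes that share libraries and, in part, a locus.

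HoxB had a broader plateau. Hoxb2 was at 20.5, Hoxb3 at 22.4 and Hoxb5 at 24.2 FPKM, with Hoxb4 between them in the cluster at 7.59 FPKM. Hoxb6 was at 8.95, Hoxb7 at 2.42 and Hoxb8 at 2.96 FPKM. Hoxb1, at the 3′ end of the cluster and known from the hindbrain, was at 0.0326 FPKM although its neighbour Hoxb2 was among the highest Hox genes of the lung. Hoxb9 was at 0.477 FPKM, the highest of the 16 genes of groups 9 to 13, of which 10 were listed at 0. The Spearman correlation of level with paralog number was -0.44 over the 10 genes.

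HoxC and HoxD were low throughout. Hoxc4 was the highest of HoxC at 0.797 FPKM, followed by Hoxc5 at 0.404 and Hoxc6 at 0.162, and Hoxd8 was the highest of HoxD at 0.233 FPKM. By paralog group, the 7 genes of groups 4 and 5 held 49.4% of the summed Hox level, the 8 genes of groups 1 to 3 37.5%, the 8 genes of groups 6 to 8 12.7%, and the 16 genes of groups 9 to 13 0.397%. In the plot of lung levels, the genes at 1 FPKM or more form a block in the 3′ parts of HoxA and HoxB.

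The noncoding entries of the clusters were examined beside the genes. Of 30 other entries overlapping the 4 clusters in the lung table, 6 reached 1 FPKM in either genotype. Among them were linc-Hoxa3-AS at 7.89 FPKM in wild type, linc-Hoxa4-AS at 6.24, linc-Hoxb3-AS at 2.05, linc-Hoxb7-AS at 1.80 and AK002860, an entry in HoxB, at 3.495 FPKM. All 6 lay in HoxA or HoxB, the clusters of the expressed genes. The linc entries among them are named as antisense to Hox genes, and whether the counting used strand is not given in the sources used here, so their reads and those of the overlapping gene may not be separable. The 6 microRNA entries were listed at 0.

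To determine whether the Hox code differed in Fendrr knockout lung, both genotypes were compared gene by gene. No Hox gene was called different among the 14 that passed the filter, beside 3.03% of all entries called in either direction, but 13 of the 14 had a higher value in knockout, beside 51.4% of all entries above the filter, and the median difference of the 14 was 0.18 against 0.004 for all 13979 entries. The differences ran from -0.01 for Hoxb8, which was at 2.96 FPKM in wild type and 2.93 in knockout, to 0.30 for Hoxb6, at 8.95 and 11.3 FPKM.

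Hoxa5 was at 40.9 FPKM in wild type and 45.6 in knockout, a ratio of 1.12. Hoxb5 was at 24.2 and 28.2 FPKM, Hoxb4 at 7.59 and 9.51 FPKM, and Hoxa4 at 8.55 and 10.3 FPKM, ratios of 1.17, 1.25 and 1.21. Genes at the 3′ end were no exception, with Hoxa2 at 9.61 and 10.9 FPKM and Hoxb2 at 20.5 and 22.0 FPKM. Each of these differences was below 0.5, and whether they exceed the spread between animals was not tested here, since the files give 1 value per group and the authors' own test columns were not used. Summed by paralog group, the ratio of knockout to wild type lay between 1.09 for group 2 and 1.24 for group 4 among groups 2 to 8, without an order along the cluster. The Spearman correlation of the ratio with paralog number was 0.03 over the 22 genes at or above 0.05 FPKM in wild type as well as knockout.

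The larger ratios belonged to genes with low levels. Hoxc5 was at 0.404 FPKM in wild type and 0.853 in knockout, and Hoxd8 at 0.233 and 0.650 FPKM, ratios of 2.11 and 2.80. Hoxc4 went from 0.797 to 1.20 FPKM and was thereby the only gene outside HoxA and HoxB at 1 FPKM or more in either lung group, which brought the count to 15 in knockout. The composition by cluster was nearly the same in both genotypes, with HoxB at 53.8% and HoxA at 44.3% of the summed level of 191 FPKM in knockout. Among the noncoding entries, AK002860 was at 3.495 FPKM in wild type and 5.48 in knockout, a difference of 0.53, and linc-Hoxa3-AS at 7.89 and 10.7 FPKM, a difference of 0.39.

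Markers of other tissues moved in the same comparison. Each of the 12 markers of cardiac muscle was higher in knockout lung, with a summed level of 977 FPKM against 320 in wild type, and 11 were called higher. Of 7 skeletal muscle markers 4 were called higher, with a summed level of 34.4 FPKM against 13.9, while Myh8 was listed at 0 in both genotypes. The lung mesenchyme list summed to 295 FPKM in knockout and 296 in wild type, and Foxf1a, the neighbour of Fendrr, was the 1 of its 7 genes called lower, at 24.8 FPKM against 36.6. The part of these markers in the Hox differences was not tested.

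Retinoic acid induces Hox genes from the 3′ end of the clusters, and Hox proteins bind DNA together with cofactors of the TALE class such as Pbx and Meis. Of 18 genes of the retinoid pathway, 14 passed the filter in lung, 2 were called higher and 1 lower in knockout. Aldh1a2, the main enzyme of retinoic acid synthesis in the embryo, was at 23.0 FPKM in wild type and 37.3 in knockout, a difference of 0.68, and Crabp1, a cellular retinoic acid-binding protein, was at 12.8 and 19.8 FPKM. Aldh1a1, another synthesizing enzyme, was at 15.02 and 9.82 FPKM, a difference of -0.57. The retinoic acid receptors Rara and Rarg differed by less than 0.1 in size, and Rarb was at 6.78 and 7.98 FPKM. Of 9 TALE cofactors, 8 passed the filter and none was called different, with Meis1 at 32.7 and 38.3 FPKM. The Cdx genes, which induce posterior Hox genes, were at most 0.0567 FPKM in lung.

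In the telencephalon, the Hox genes were listed at or near 0. Of the 39 genes, between 30 and 36 were listed at 0 in each of the 4 telencephalic groups, and none reached 0.1 FPKM. The highest values were 0.0371 FPKM for Hoxd8 in E13.5 wild type, 0.0395 for Hoxb9 in E13.5 knockout, 0.0218 for Hoxb9 in E15.5 wild type and 0.0176 for Hoxb9 in E15.5 knockout. The summed level of all 39 genes lay between 0.0573 and 0.124 FPKM. The tissue label was borne out by its markers, with telencephalic genes summing to between 755 and 862 FPKM in the 4 groups. No Hox gene passed the filter in the comparison of knockout and wild type at either age, so no difference between genotypes could be described.

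The cofactors and the retinoid pathway were nevertheless present in the same RNA. The 9 TALE genes summed to 255 FPKM in E13.5 wild type, with Meis2 at 85.2 FPKM. Of the retinoid genes, 3 were called lower in E13.5 knockout, among them Crabp1 at 17.3 and 10.6 FPKM and Crabp2 at 32.6 and 20.2 FPKM.

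**Figure D1:**
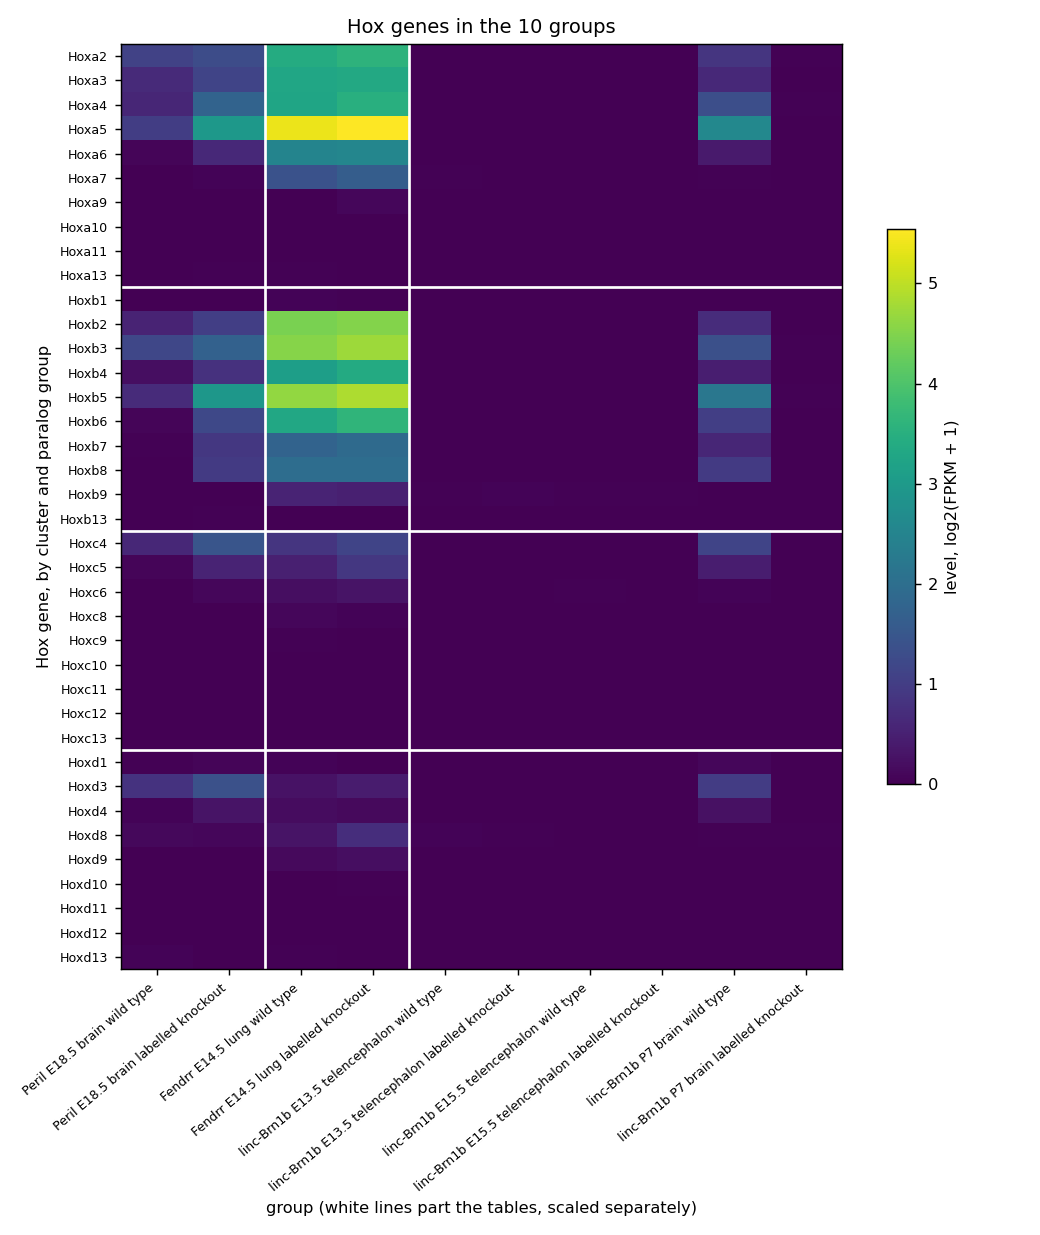
Level of 38 Hox genes (rows, by cluster and paralog group) in the 10 groups (columns), coloured by log2(FPKM + 1), with white lines between clusters and between tables that were scaled separately. The lung columns are bright in HoxA and HoxB, the 4 telencephalic columns and the P7 knockout column are dark in all rows, and the other brain columns show an intermediate pattern that includes Hoxc4 and Hoxd3.

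The wild-type P7 brain, in the same table as the telencephalon, had a different Hox content. Of the 39 genes, 6 reached 1 FPKM and 16 reached 0.1 FPKM, with a summed level of 19.8 FPKM. Hoxa5 was at 5.06 FPKM at P7 and listed at 0 in both wild-type telencephalic groups, and Hoxb5 was at 3.61 FPKM and likewise at 0 in telencephalon. These were the 2 genes with a mean of at least 1 FPKM. Both passed this filter through the P7 value alone and so had to be called higher, and nothing is read from their count beside the 28.5% of entries called higher than at E13.5 and the 26.1% than at E15.5. Without the filter, 12 of 39 Hox genes were higher by at least 0.5 against either age, beside 12.2% and 11.2% of all entries. Age and dissected region differ together in this comparison and cannot be told apart.

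Below the group 5 genes, Hoxb3 was at 1.54, Hoxa4 at 1.52, Hoxc4 at 1.20 and Hoxb6 at 1.03 FPKM in wild-type P7 brain. Hoxd3 was at 0.974, Hoxb8 at 0.918 and Hoxa2 at 0.803 FPKM. The order of the genes was unlike that of the lung in its clusters, since HoxC held 8.03% and HoxD 6.30% of the summed Hox level, against 0.864% and 0.437% in wild-type lung. The tables were scaled separately, and such shares within a group do not depend on that scale. In groups 9 to 13, 13 of 16 genes were listed at 0 and the highest value was 0.0100 FPKM, for Hoxd13. In group 1, Hoxd1 was at 0.0637 FPKM and Hoxb1 was listed at 0.

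In the P7 knockout group, this content was missing. No Hox gene reached 0.1 FPKM, 30 of 39 were listed at 0, and the summed level was 0.166 FPKM against 19.8 in wild type. Hoxa5 was listed at 0 against 5.06 FPKM and Hoxb5 was at 0.0165 against 3.61 FPKM. Both passed the filter through the wild-type value alone and so had to be called lower, and nothing is read from their count beside the 3.29% of all entries called lower. Without the filter 12 of 39 were lower by at least 0.5, beside 1.37% of all entries. Hoxa4 was at 0.0210 against 1.52 FPKM, Hoxb3 at 0.0221 against 1.54 FPKM, and Hoxc4, Hoxb6, Hoxb8, Hoxb2 and Hoxa3 were listed at 0. These knockout values thus lay in the range of the telencephalic groups, whose highest value was 0.0395 FPKM.

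Cerebellar and brainstem markers were lower by smaller amounts in the same groups. The summed level in knockout was 0.835% of wild type for all 39 Hox genes, 44.5% for the cerebellar list and 53.2% for the brainstem list. Among genes with at least 0.05 FPKM in wild type, the median level in knockout was 0% of wild type for 17 Hox genes, 26.5% for 8 cerebellar markers, 33.1% for 8 of the 10 brainstem markers, 85.3% for 8 markers of diencephalon and midbrain, and 118% for 8 telencephalic markers. The brainstem markers themselves were uneven. Slc6a5 and Lbx1, a regulator of dorsal hindbrain and spinal neurons, were both at 8.22% of wild type, Tlx3 was at 11.7%, and among the genes of serotonin neurons Fev was at 27.3%, Lmx1b at 38.9%, Tph2 at 57.4% and Slc6a4 at 61.9%. The part of the dissected region in the Hox values was not tested, and it cannot be told apart from genotype with 1 value per group.

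**Figure D2:**
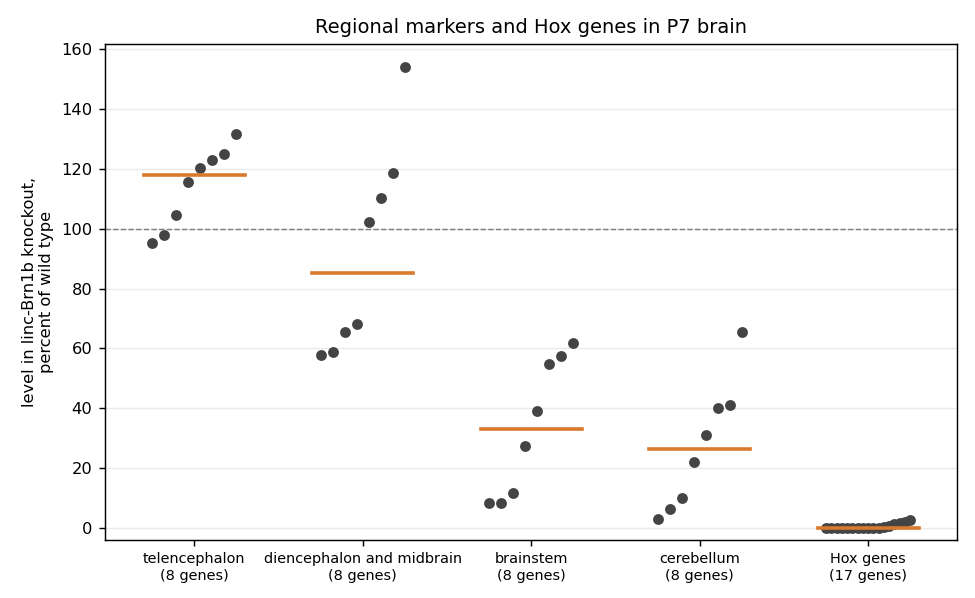
Level of each gene in P7 linc-Brn1b knockout brain as a percent of its wild-type level (vertical axis), for 4 lists of regional markers and for 17 Hox genes with at least 0.05 FPKM in wild type. Points are genes and orange lines are medians, which lie at 118% for telencephalon, 85.3% for diencephalon and midbrain, 33.1% for brainstem, 26.5% for cerebellum and 0% for Hox genes.

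Such near absence was rare in the P7 comparison. Of 14199 entries at 1 FPKM or more in wild type, 23 (0.162%) were at or below 5% of that level in knockout, and 6 of the 23 were the 6 Hox genes at that level. This cut was chosen after the values had been seen. The reverse was about as frequent. Of 14096 entries at 1 FPKM or more in knockout, 22 (0.156%) were at or below 5% of that level in wild type. Among the other 17 entries were Pomc and Gh, hormone genes of the pituitary, at 26.6 and 6.19 FPKM in wild type and 1.15 and 0.0157 in knockout, and Pax2, a gene of the midbrain-hindbrain boundary and of cerebellar and hindbrain interneurons, at 1.70 and 0.0295 FPKM. The 17 also held entries with no known region, such as the small nucleolar RNA Snora15 at 58.9 FPKM and linc-Pex2-1 at 5.62 FPKM in wild type. Both were listed at 0 in knockout. Of the TALE cofactors, Meis1 was the only one called different, at 6.69 FPKM in wild type and 2.68 in knockout, while Meis2 was at 34.4 and 38.0 FPKM. Of the 18 retinoid genes, Crabp1 and Crabp2 were called lower, at 17.9 and 12.2 FPKM and at 9.20 and 5.89 FPKM. Among the antisense entries, linc-Hoxa3-AS was at 0.422 FPKM and linc-Hoxa4-AS at 0.356 FPKM in wild type, and both were listed at 0 in knockout.

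In E18.5 brain of the Peril strain, Hox levels were higher in the libraries labelled knockout than in wild type. In wild type, 3 genes reached 1 FPKM, namely Hoxb3 at 1.27, Hoxa2 at 1.14 and Hoxa5 at 1.002 FPKM, with a summed level of 7.51 FPKM. In the libraries labelled knockout, 10 genes did, with Hoxa5 at 6.81 and Hoxb5 at 6.63 FPKM in the lead and a summed level of 30.7 FPKM. Of 7 genes that passed the filter 6 were called higher, beside 1.54% of all entries, and the median difference of the 7 was 0.84 against 0.003 for all 14405 entries. A low gene can pass this filter through the higher group alone, so all 39 are given as well. Of the 39, 22 had a higher value in the libraries labelled knockout, 4 a lower one and 13 were listed at 0 in both. Without the filter 11 of 39 were higher by at least 0.5, beside 0.755% of all entries.

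The ratio between the groups differed among the genes. Hoxa2 was at 1.14 FPKM in wild type and 1.45 in the libraries labelled knockout, a ratio of 1.26, and Hoxb3 at 1.27 and 2.30 FPKM, a ratio of 1.81. Hoxa4 was at 0.516 and 2.39 FPKM, a ratio of 4.63. Hoxa5 was at 1.002 and 6.81 FPKM and Hoxb5 at 0.611 and 6.63 FPKM, ratios of 6.79 and 10.9. Hoxb6 was at 0.0510 and 1.32 FPKM, a ratio of 25.8 that rests on a very low wild-type value, and Hoxb8 was at 0.0118 and 0.917 FPKM.

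Sums were then formed over paralog groups 2 to 8. The ratio of the libraries labelled knockout to wild type was 1.55 for group 2, 1.97 for group 3, 4.11 for group 4, 8.35 for group 5, 18.3 for group 6 and 10.6 for group 8, so it did not increase at every step. Group 7 was at 0.0267 FPKM in wild type against 0.913 FPKM in the group labelled knockout, and no ratio was formed against so low a value. Over the 15 genes at or above 0.05 FPKM in wild type as well as in the libraries labelled knockout the Spearman correlation of ratio and paralog number was 0.57, a description over genes of the same libraries in which neighbours share loci. Hoxd8 was the 1 of these 15 with a ratio below 1, at 0.0808 and 0.0643 FPKM. In lung the ratios of the same groups lay in a narrow range, as the plot of ratios by paralog group shows.

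**Figure D3:**
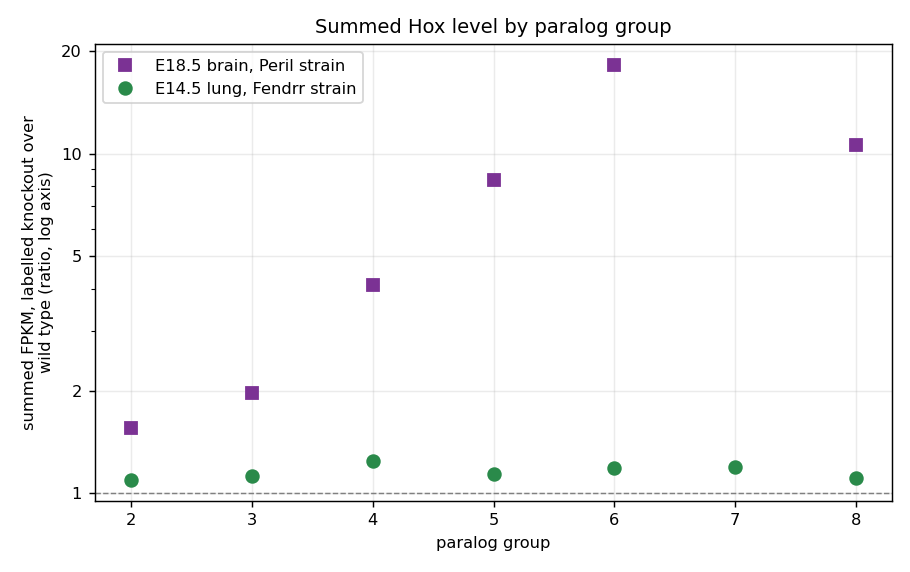
Ratio of summed FPKM, libraries labelled knockout over wild type (log axis), for paralog groups 2 to 8, in E18.5 brain of the Peril strain (squares) and E14.5 lung of the Fendrr strain (circles). Ratios in brain go from 1.55 for group 2 to 18.3 for group 6, while those in lung stay between 1.09 and 1.24, and group 7 in brain is not drawn because its wild-type sum was below 0.05 FPKM.

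The composition of the Hox level therefore differed between the groups of the Peril strain. Groups 1 to 3 held 57.2% of the summed level in wild type and 25.3% in the libraries labelled knockout, groups 4 and 5 held 38.8% and 61.9%, and groups 6 to 8 held 3.02% and 12.5%. Wild-type P7 brain of the other strain, set beside these, had 23.6% in groups 1 to 3, 61.9% in groups 4 and 5 and 14.4% in groups 6 to 8. These tables were scaled separately and the ages differ, so the shares are set side by side only. In no group from brain or telencephalon did a gene of groups 9 to 13 exceed 0.0395 FPKM.

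The lists of regional markers were examined in the same comparison. The 10 brainstem markers summed to 19.8 FPKM in wild type and 23.1 in the libraries labelled knockout, with none called different. Of the 10, 7 had a higher value in the libraries labelled knockout and 3 a lower one, beside 35.2% of all entries higher and 50.8% of those above the filter. The largest differences in that list were those of Slc6a5, at 1.58 and 2.54 FPKM, and Lmx1b, a regulator of serotonin neurons, at 1.34 and 2.13 FPKM. The cerebellar list was lower in sum, at 88.0 against 101 FPKM, with Pcp2 called lower at 6.34 and 2.39 FPKM, and the telencephalic list was at 328 against 302 FPKM. Of 6 markers of spinal cord and enteric neurons none was called different, Mnx1, the motor neuron factor, was listed at 0 in both groups, and the list summed to 17.99 and 18.3 FPKM. Their part in the Hox values was not tested.

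None of the TALE cofactors and none of the retinoid genes was called different in E18.5 brain. Aldh1a2 was at 10.3 FPKM in wild type and 7.36 in the libraries labelled knockout, and 16 of the 18 retinoid genes had a lower value in the latter, beside 33.4% of all entries and 49.2% of those above the filter. Gbx2, a regulator of hindbrain patterning, was at 3.36 and 3.98 FPKM. Of 30 noncoding and other entries in the clusters, linc-Hoxa3-AS alone reached 1 FPKM, at 0.159 FPKM in wild type and 1.02 in the libraries labelled knockout, a difference of 0.80, beside 0.48 for Hoxa3 at 0.575 and 1.20 FPKM.

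**Figure D4:**
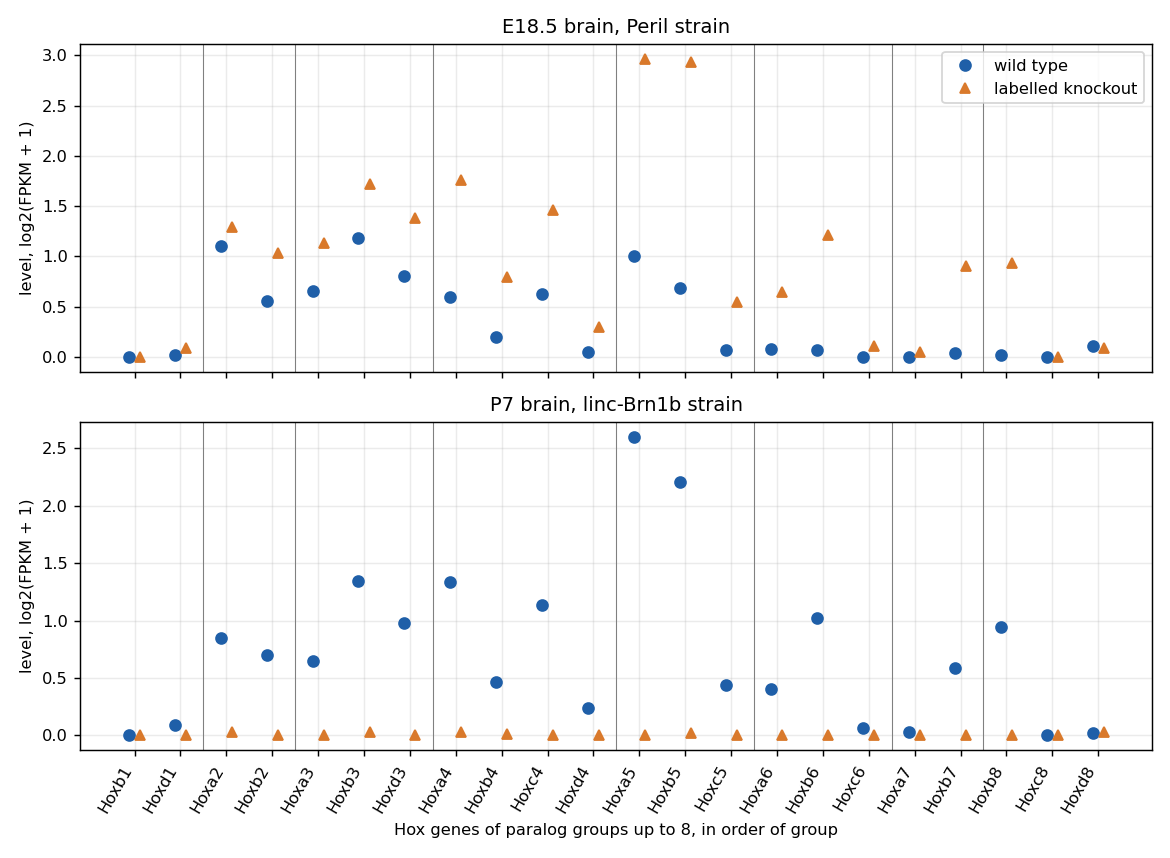
Level of 22 Hox genes of paralog groups up to 8, as log2(FPKM + 1), in E18.5 brain of the Peril strain (upper panel) and P7 brain of the linc-Brn1b strain (lower panel), with genes in order of group and thin lines between groups. Circles are wild type and triangles the group labelled knockout. In the upper panel the triangles rise furthest above the circles from group 4 on, with Hoxa5 and Hoxb5 highest, and in the lower panel all triangles lie at or near 0.

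Hoxa5 and Hoxb5 were the highest Hox genes of lung in both genotypes, of wild-type P7 brain and of the E18.5 brain libraries labelled knockout. In E18.5 wild type Hoxb3 and Hoxa2 stood above both, and Hoxd3 stood between them. No gene of groups 10 to 12 exceeded 0.0227 FPKM in any group. In the other clusters, Hoxd3 was at 0.974 FPKM in P7 and 0.744 FPKM in E18.5 wild-type brain and at 0.200 FPKM in wild-type lung. Hoxa7, at 1.65 FPKM in wild-type lung, was at 0.0176 FPKM in P7 wild-type brain, while its paralog Hoxb7 was at 2.42 and 0.504 FPKM. Levels of lung and brain come from tables scaled separately and are set side by side without a test.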

How the data were processed

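RNA-Seq libraries had been made from total RNA of lung, brain and telencephalon. Per the labels and the study's methods, reads were aligned to mm9 with TopHat2, transcripts were assembled with Cufflinks 2.0.2, and Cuffdiff2 was run with default options. The authors deposited FPKM in 3 tables, as 1 value per group pooled over its libraries, with 0 columns of values per sample. Their columns of fold changes, test statistics, p-values and status were not used. Depth and replicate spread are unknown, so no test, interval, standard deviation or detection floor was computed.

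The 39 members were found by symbol. Named genes were all members, other entries between the first and last gene of each cluster at 1 FPKM or more, and 12 lists of cofactors, pathways and regional or tissue markers. The members and lists were chosen with earlier results of these data known. In the table of the linc-Brn1b strain, the column naming the group of each value was checked on all 30 value columns, which gave the same values for a group in every comparison. For lung and E18.5 brain the same order was assumed and could not be checked in this way. Differences are log2(FPKM + 1), and a call needs a mean of 1 FPKM and a difference of 0.5. Tables were scaled separately, so differences and calls were computed only within a table, and levels or shares from several tables were only set side by side. Ratios need 0.05 FPKM in both groups. Positions and coding sequences are from GENCODE on mm9 (NCBIM37). The call rule was tested on simulated data, with changes placed only in entries well above the filter. That test does not cover the low levels of most Hox genes in brain. Python 3.11.15 with NumPy 2.4.6, pandas 2.3.3, SciPy 1.17.1 and matplotlib 3.10.9 was used. Alternatives were expression levels of 0.5 and 2 FPKM, rescaling to TPM, a pseudocount of 0.1, median centring, other filters and sizes of call, and the highest entry per symbol. Some genes and sequences are not reported here.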

Additional observations from a re-analysis of the deposited data

How the results depend on the processing

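Of 90 alternative values of the counts, medians and cluster shares, 61 kept the count within 1.5 times, the median within 0.1 or the share within 5 percentage points. Part of these 61 was fixed in advance and does not speak for stability. Taking the highest entry per symbol could change nothing, because each Hox gene was listed exactly once. In telencephalon every Hox gene was below 0.1 FPKM, so its counts had to stay at 0. Single differences were recomputed for the 14 lung genes above the filter, none of which was called. With 0.5 FPKM as the level of expression, 8 Hox genes were expressed in E18.5 wild-type brain and 12 in P7 wild-type brain. With 2 FPKM these were 0 and 2, and as TPM 9 and 12. In the Peril comparison, the count of called genes was 11 without the filter, 2 with a mean of 2 FPKM, 3 at a difference of 1 and 12 as TPM, and the median difference was 1.54 with a pseudocount of 0.1, 0.0544 without the filter, 2.10 with a mean of 2 FPKM and 1.19 as TPM. In lung, 1 gene was called as TPM, and the median was 0.0402 without the filter. In the P7 comparison, 12 genes were called without the filter, 1 with a mean of 2 FPKM and 9 as TPM, and the median was -5.34 with a pseudocount of 0.1, -0.0251 without the filter, -2.60 with a mean of 2 FPKM and -1.99 as TPM. Against either telencephalic age, 12 genes were higher at P7 without the filter, 1 with a mean of 2 FPKM and 8 as TPM. Without the filter, genes listed at 0 enter the median. In lung, 13 of the 14 named differences stayed above 0 in each alternative, with Hoxb8 below 0. Rescaling to TPM shifted the median difference of all entries by 0.18 at E13.5, where no Hox gene passed the filter, and by less than 0.05 in size elsewhere.

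No paired analysis was possible because the tables hold 1 value per group, and leaving out a replicate was not run for the same reason. With 2 or 3 libraries behind each value and unknown depth, differences between genotypes cannot be set against the spread between animals, the number of fragments behind low values is not known, and a value of 0 says only that a gene is listed at 0. Medians were not computed for telencephalon, where no gene passed the filter.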
